A study of Mus musculus with 96 samples.

Results

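In a mouse pancreatic cancer cell line, 5 of the 47 single nuclei sorted at the 2N level of DNA content carried chromosome 3 at about 4 copies, where the other 42 carried it at about 3. These 5 nuclei, called the chromosome 3 minority here, were chosen by a single value per nucleus, the median ratio over the bins of chromosome 3 divided by the median over the bins of chromosome 4. Nuclei at or above the value for 3.5 copies of chromosome 3 per 2 copies of chromosome 4 form the minority. The series holds 94 single nuclei and 96 libraries in all, and the same threshold was reached by 30 of 35 nuclei of the 2N+ gate and by 4 of 12 nuclei of the 4N gate.

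Every library came from KPC1199EGFP, an EGFP-expressing tumour cell line of C57BL\6 background, taken as untreated adherent cells at passage 9. Nuclei were stained with DAPI, a dye that reports DNA content, and sorted into the gates 2N, 2N+ and 4N, and the DNA of each nucleus was amplified and sequenced. The comparisons below use the 5 minority nuclei, the 42 other 2N nuclei and the 30 2N+ nuclei at or above the threshold. The labels describe a single line at a single passage, so each gate is 1 sample, nuclei are not replicates of a condition, and no test between groups was made. Intervals given with shares of nuclei are exact Clopper-Pearson 95% intervals and cover counting error only. The library index numbers of the 2N and 2N+ nuclei do not overlap, so gate and index cannot be told apart.

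Aneuploidy is a chromosome number that is not a whole multiple of the haploid set. It can arise when a chromosome segregates wrongly in mitosis, so that a daughter cell gains a copy, and cells of a tumour line often differ from each other in this way. Sequencing of a single nucleus shows it as bins whose read density lies at a whole-number step from the rest of the genome. Mouse chromosome 3 carries Nras, a RAS family GTPase, Pik3ca, the catalytic subunit of a PI3-kinase, Sox2 and Mecom, which encode transcription factors, Prkci, an atypical protein kinase C, Fbxw7, a substrate receptor of a ubiquitin ligase, and Notch2, a receptor. These are 7 genes of a list of 24 cancer genes, all 24 of which were matched to a chromosome in the RefSeq table of GRCm38.p6. The list gives background only, because copies are described here by chromosome and region.

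The ratio of chromosome 3 to chromosome 4 was 1.98 in nucleus 16, 1.97 in nucleus 35, 1.96 in nucleus 13, 1.95 in nucleus 29 and 1.87 in nucleus 8. The 42 other 2N nuclei ran from 1.46 to 1.68 with a median of 1.5. No nucleus of the 2N gate lay between 1.68 and 1.87, the values just outside and just inside the threshold. The nuclei nearest below it were nucleus 46 at 1.68, nucleus 24 at 1.62 and nucleus 7 at 1.61. Because this ratio chose the members, its separation is a description. With chromosomes 7, 9, 10 and 13 as the denominator in place of chromosome 4, the minority ran from 1.86 to 1.96 and the others from 1.46 to 1.58, and the same 5 nuclei stood apart. In the 2N+ nuclei at or above the threshold the ratio ran from 1.93 to 2.31 with a median of 1.97, so 4 of the 5 minority nuclei lay within that range and nucleus 8 lay below it. The 2.31 belongs to a single 2N+ nucleus, which was also the 2N+ nucleus farthest from each of the 5 members by profile.

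**Figure D1:**
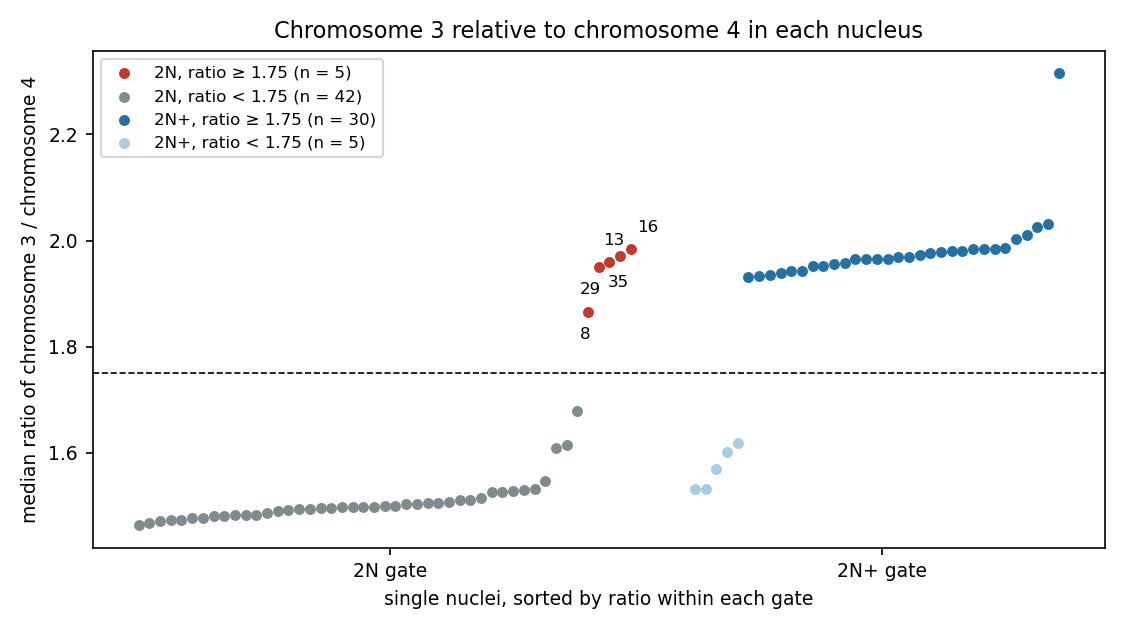
Ratio of chromosome 3 to chromosome 4 (vertical axis, no unit) for each single nucleus, grouped by gate, the members labelled by number and the threshold drawn as a dashed line. The 5 minority nuclei lie between 1.87 and 1.98, and the 42 other 2N nuclei between 1.46 and 1.68.

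Scaled to copies, chromosome 3 stood at 3.80 in nucleus 8, 3.95 in nucleus 13, 3.95 in nucleus 16, 4.0 in nucleus 29 and 3.94 in nucleus 35. The other 2N nuclei ran from 2.94 to 3.24 with a median of 3.02. A copy is the unit that best brings the autosomal bins of a nucleus to whole numbers, so a whole chromosome gained once moves by about 1. The gain covered the whole chromosome: all 308 bins rounded to 4 copies in every minority nucleus. Nuclei 13 and 35 had 1 level from end to end. Nucleus 8 had 2 levels, 4.09 up to position 46234205 of the mm9 assembly and 3.80 after it. Nucleus 16 dipped to 3.65 over 28 bins, chr3:138653569-152118382, and nucleus 29 dipped to 3.69 over 34 bins, chr3:129331334-145926423. These dips are smaller than 0.5 copies, and no annotation of mm9 was used here to name genes within them. Nucleus 46, just below the threshold, had 94.8% of its chromosome 3 bins at 3 copies and fell to 2.42 over 16 of them, so it held no stretch at 4.

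**Figure D2:**
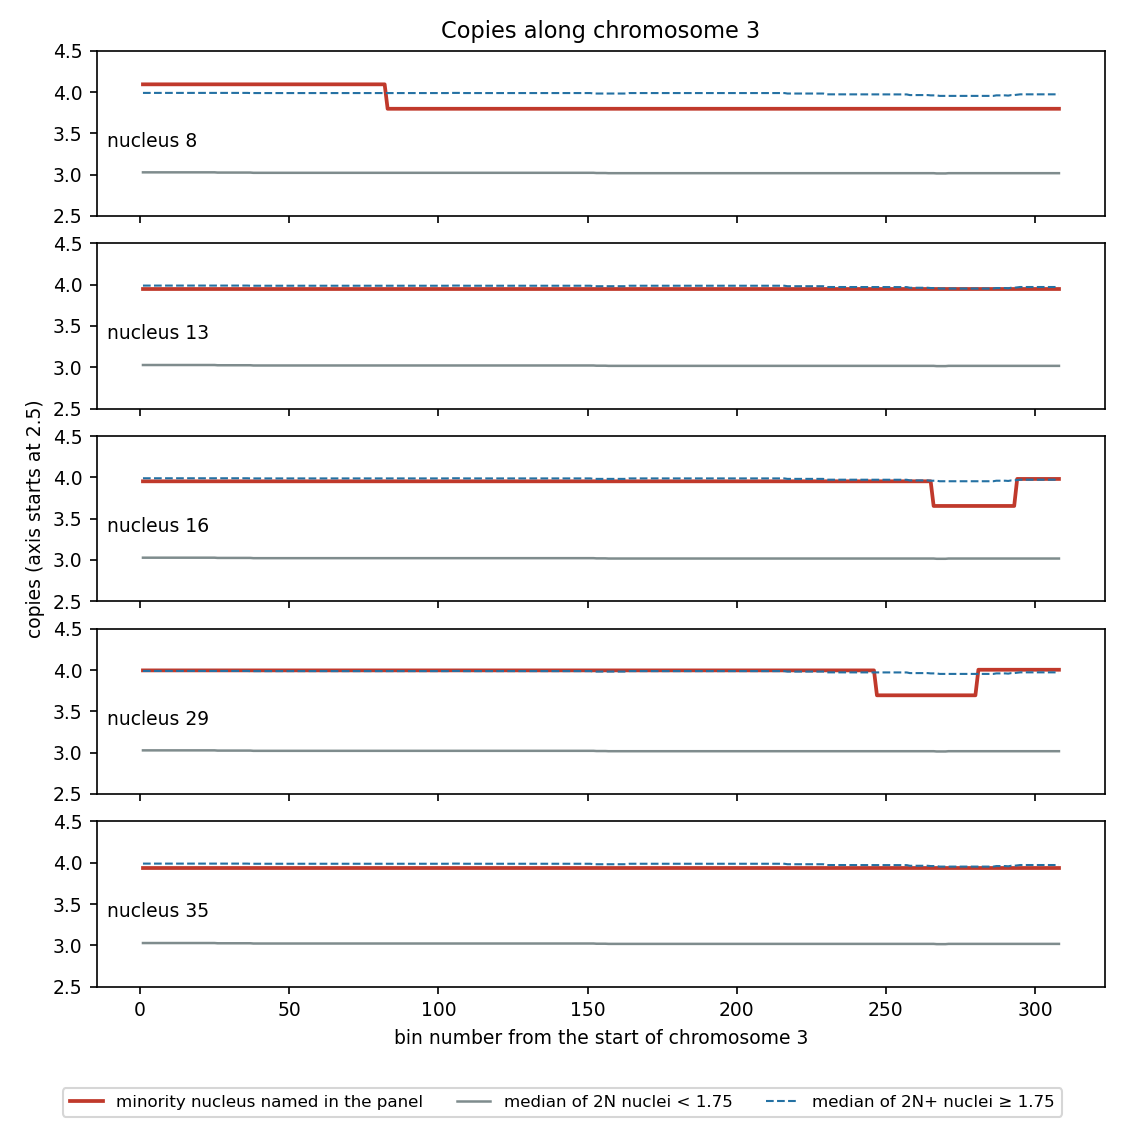
Copies along chromosome 3 (vertical axis, starting at 2.5) against bin number from its start (horizontal axis), with 1 panel for each minority nucleus in red, the median of the other 2N nuclei in grey and the median of the 2N+ nuclei at or above the threshold as a dashed blue line. Each minority nucleus stays within 0.5 copies of 4 in all 308 bins, with dips to 3.65 in nucleus 16 and 3.69 in nucleus 29.

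The copies of a chromosome are given as its median over bins, which can hide a gain or loss of part of it. By these medians, outside chromosomes 3, 4 and Y, the minority differed from the other 2N nuclei most in chromosomes 15 and 16, which were at 3 copies in most of its nuclei and at 2 in most of the others. Chromosome 15, which carries the transcription factor gene Myc, stood at 2.92 in nucleus 8, 2.05 in nucleus 13, 2.93 in nucleus 16, 2.87 in nucleus 29 and 2.91 in nucleus 35. The other 2N nuclei ran from 1.99 to 3.06 with a median of 2.04. Nucleus 13 was the only member at 2 copies, and the groups overlapped. At 3 or more copies were 4 of 5 minority nuclei (80%, interval 28.4 to 99.5%) and 8 of 42 others (19%, interval 8.60 to 34.1%). The 2 intervals overlap, but the difference was not tested and overlap does not show the shares to be alike. Among the 2N+ nuclei with the same ratio, 29 of 30 were at 3 or more copies (96.7%, interval 82.8 to 99.9%).

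Of the 18 chromosomes compared, which are those other than 3, 4 and Y, 2 had medians at least 0.5 copies apart between the minority and the other 2N nuclei (11.1%), both higher in the minority. They were chromosome 15, 0.875 copies higher, and chromosome 16, 0.815 copies higher. Chromosome 16 stood at 2.85 in nucleus 8, 2.24 in nucleus 13, 2.90 in nucleus 16, 2.09 in nucleus 29 and 2.92 in nucleus 35, against a median of 2.03 in the others (1.94 to 2.97). It was thus at 3 or more copies in 3 of 5 minority nuclei, in 2 of 42 others and in 20 of 30 2N+ nuclei. With the mean over bins in place of the median, chromosome 16 was no longer 0.5 copies apart and chromosome 15 alone remained.

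The difference in chromosome 16 lay in its middle. Over chr16:18611456-66290027 the minority nuclei held 2.85, 1.93, 2.90, 2.01 and 2.92 copies, in the order 8, 13, 16, 29 and 35, and the others ran from 1.94 to 2.97 with a median of 2.01. This middle was at 3 or more copies in 3 of 5 minority nuclei, 1 of 42 others and 20 of 30 2N+ nuclei. By region median, the stretches before and after it were at 3 or more copies in 5 of 5 minority nuclei. The same held in 24 and 23 of 42 others and in 25 and 24 of 30 2N+ nuclei. Nuclei 13 and 29, with the middle at 2, shared the steps that bound it with 20 to 22 of the 42 other 2N nuclei and 4 of the 30 2N+ nuclei. The last stretch was not even in these 2 nuclei: nucleus 29 fell from 2.85 to 2.09 copies at position 80661654 without a later step back, and nucleus 13 fell to 2.24 at position 80175641 and returned to 2.96 at position 84241393. Of the 55 regions outside chromosomes 3 and 4, 3 had medians at least 0.5 copies apart from the other 2N nuclei (5.45%), all higher in the minority: the start of chromosome 8 by 0.915 copies, the whole of chromosome 15 by 0.875 and the middle of chromosome 16 by 0.845.

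The start of chromosome 8, chr8:1-43640395, was at 3 copies in 4 minority nuclei and at 2.06 in nucleus 13. The 42 other 2N nuclei had a median of 2.05 there and ran from 1.96 to 3.10. In most other 2N nuclei this stretch lay a copy below the rest of the chromosome, and it reached 3 copies in 7 of 42 of them, against 28 of 30 2N+ nuclei. Nucleus 13 was low along the whole of chromosome 8, at 2.06, and it was the only member with fewer than 3 copies by the chromosome median. Nucleus 29 was low in the distal part, falling from 2.97 to 2.05 copies at position 92411322. Of the other 2N nuclei, 38 of 42 had 3 or more copies by the chromosome median.

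**Figure D3:**
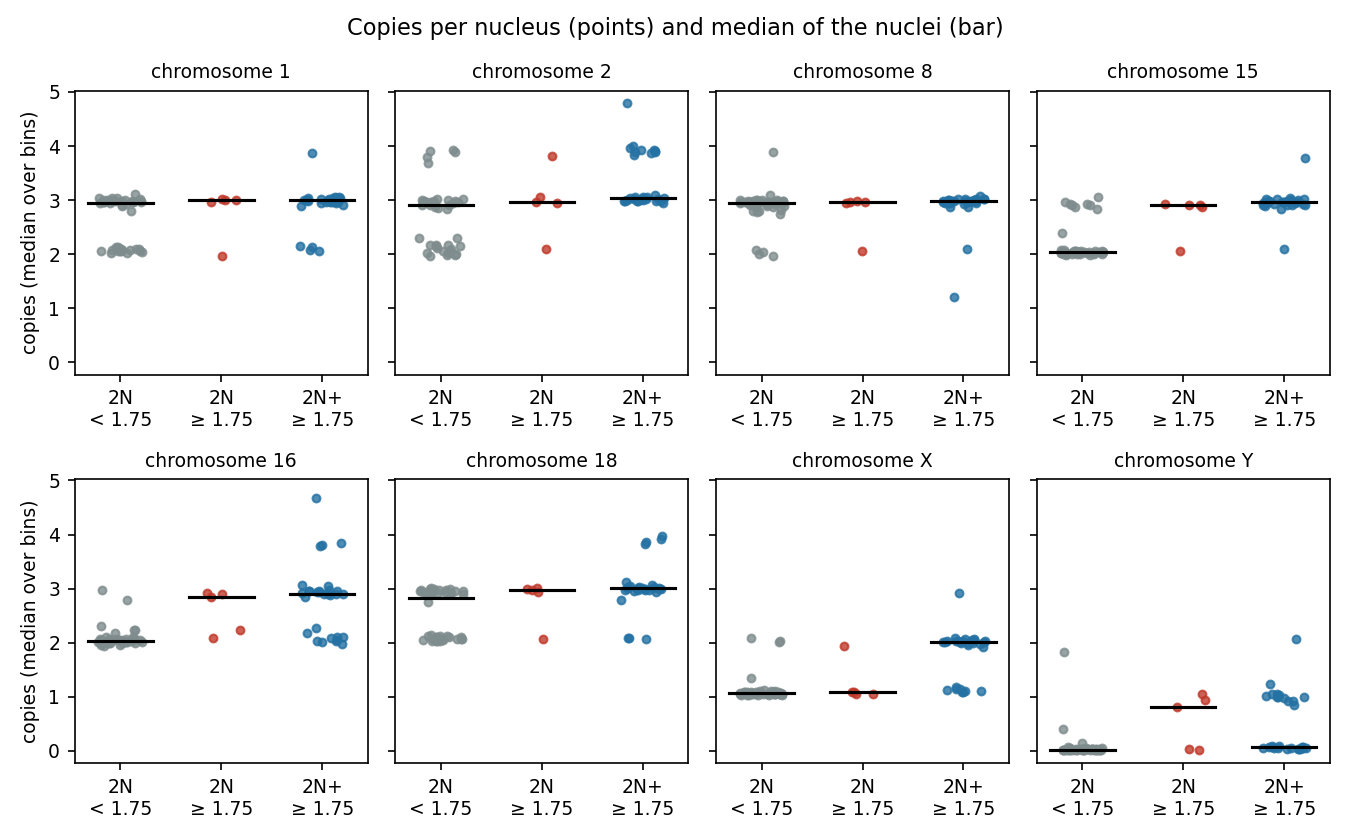
Copies (vertical axis) of chromosomes 1, 2, 8, 15, 16, 18, X and Y, with 1 point per nucleus and bars at the medians. Shown are the other 2N nuclei (grey), the minority (red) and the 2N+ nuclei at or above the threshold (blue). The minority sits mostly near 3 for chromosomes 15 and 16, where the medians of the other 2N nuclei are 2.04 and 2.03, and near 1 for chromosome X, where the 2N+ median is 2.01.

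Chromosome 18, the home of Smad4, a transducer of TGF-beta signals, and of the transcription factor gene Gata6, was at 3 copies in 4 of 5 minority nuclei and 22 of 42 others, with medians of 2.98 and 2.82. Chromosome 1 was at 3 copies in 4 of 5 and 26 of 42, and nucleus 35 was the member with 1.97. Chromosome 2 had medians of 2.96 and 2.91, but the members ran from 2.09 in nucleus 13 to 3.82 in nucleus 29. None of these 3 chromosomes was 0.5 copies apart between the groups. Nucleus 29 alone held chromosomes 5 and 14 at 3 copies, 3.02 and 2.90. Chromosome 5 at 3 copies was also seen in 5 of 42 others, whereas chromosome 14 at 3 was seen in 0 of 42. Among the 2N+ nuclei at or above the threshold, chromosome 5 was at 3 in 12 of 30 and chromosome 14 in 3 of 30. By the chromosome median, chromosomes 4, 7, 9, 10, 12 and 13 were at 2 copies and chromosomes 6, 11, 17 and 19 at 3 in all 5 minority nuclei. Within chromosome 11, nucleus 29 rose to 3.79 copies over chr11:58659994-70335154 and to 3.84 from position 95625099 on, while the other 4 members stayed between 2.91 and 3.02 in every region. By region median, chr11:59116632-70335154 was at 4 or more copies in 5 of 42 other 2N nuclei and 5 of 30 2N+ nuclei. The same counts held from position 95625099 on.

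The sex chromosomes split the minority differently. Chromosome X stood at 1.93 in nucleus 8 and between 1.05 and 1.08 in the other 4, and the other 2N nuclei had a median of 1.07. It was at 2 or more copies in 1 of 5 minority nuclei, 3 of 42 others and 22 of 30 2N+ nuclei (73.3%, interval 54.1 to 87.7%). Chromosome Y, which has only 3 bins and was described after its values were seen, stood at 0.804 in nucleus 8, 1.04 in nucleus 16 and 0.935 in nucleus 35, and at 0.0159 in nucleus 13 and 0.0290 in nucleus 29. A copy of Y was thus present in 3 of 5 minority nuclei, against 1 of 42 others (2.38%) and 13 of 30 2N+ nuclei (43.3%).

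Set beside the 2N+ nuclei of the same ratio, the minority had 1 of 18 chromosomes with medians at least 0.5 copies apart (5.56%). That chromosome was X, 1.08 in the minority and 2.01 in the 2N+ nuclei. For chromosomes 15 and 16 the medians were 2.91 and 2.85 in the minority and 2.96 and 2.90 in the 2N+ nuclei. By region, 3 of 55 were apart (5.45%), all lower in the minority. Besides X, they were chr5:5715258-14159645, with medians of 5.95 and 6.88 copies, and chr2:14885854-75743670, with medians of 1.98 and 2.87. Over the chromosome 5 stretch the minority ran from 5.84 to 8.53 copies, wholly within the 2N+ range of 4.15 to 8.93. The chromosome 2 stretch lay a copy below both its neighbours in all 5 minority nuclei. Steps at its start and end were also found in 27 and 24 of 30 2N+ nuclei, and each in 25 of 42 other 2N nuclei. The stretch reached 3 copies in 1 of 5 minority nuclei (nucleus 29, where the rest of the chromosome is at about 4), in 5 of 42 other 2N nuclei and in 19 of 30 2N+ nuclei.

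**Figure D4:**
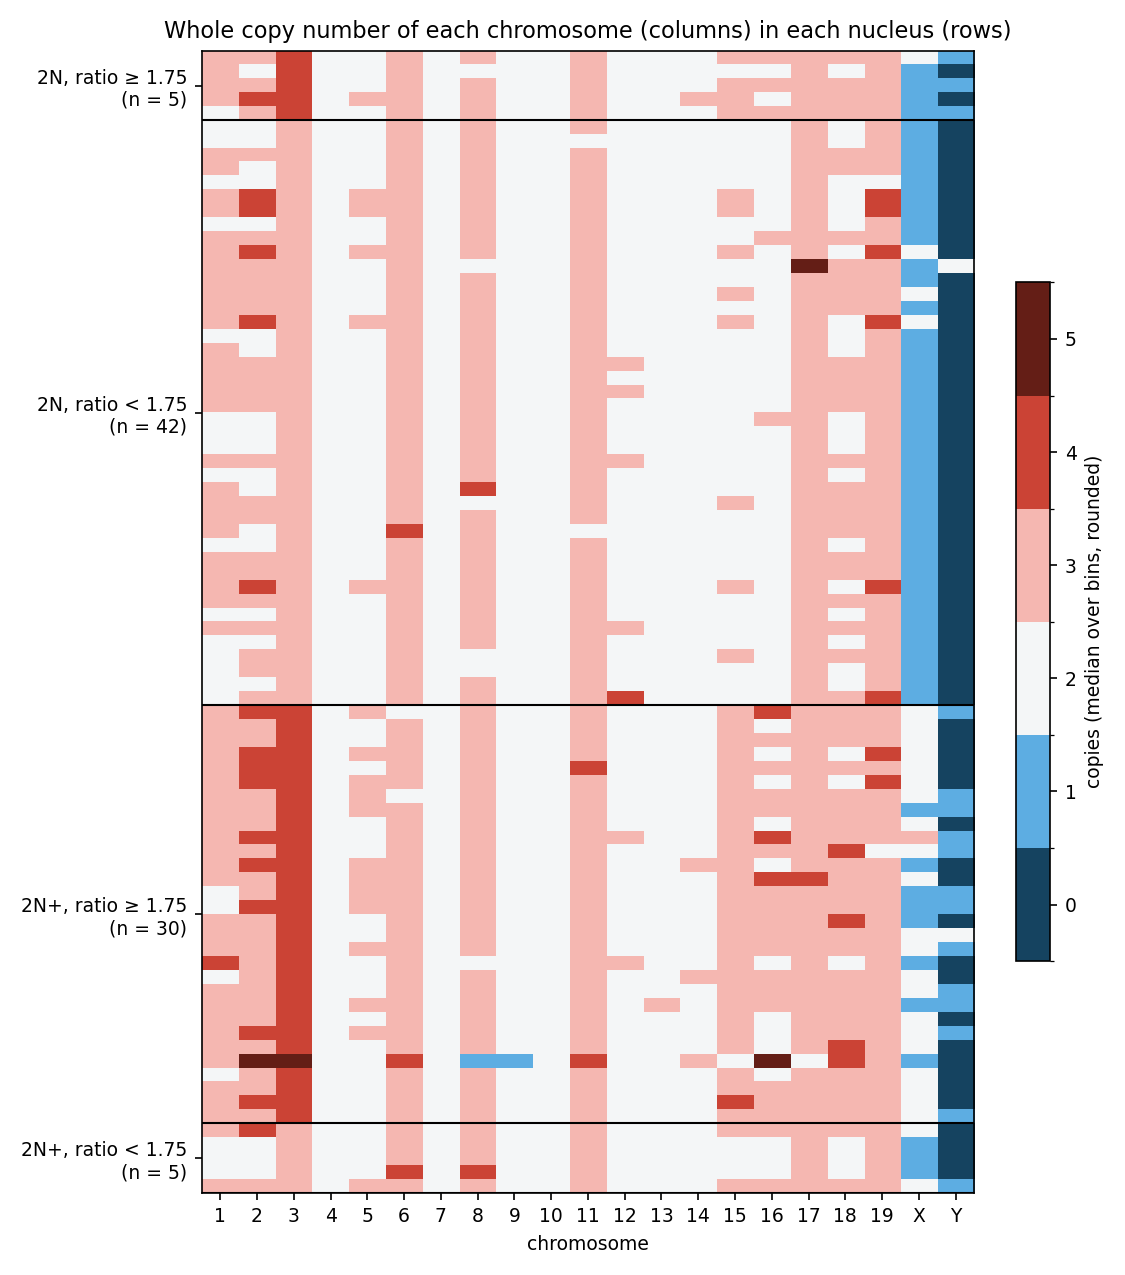
Whole copies of each chromosome (columns) in each nucleus (rows), with colour for copy number, for the minority (top, nuclei 8, 13, 16, 29 and 35 in order), the other 2N nuclei, and the 2N+ nuclei at or above and below the threshold. No minority nucleus has the same set as another, and nucleus 8 has the most common set of the 2N+ nuclei.

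The gains came together in some nuclei. Chromosomes 15, 16 and 18 at 3 or more copies with a copy of Y were found in nuclei 8, 16 and 35. That is 3 of 5 minority nuclei (60%, interval 14.7 to 94.7%), beside 0 of 42 other 2N nuclei (upper limit 8.41%) and 12 of 30 2N+ nuclei. This combination was chosen after the values were seen. Nuclei 8 and 16 differed in whole copies of chromosomes 1 to 19 and X at X alone, and nuclei 16 and 35 at chromosome 1 alone. Nucleus 13 differed from every other member at 5 or 6 chromosomes and nucleus 29 at 4 to 6. All 5 members had different sets of whole copies, compared with 19 sets among the 42 others and 23 among the 30 2N+ nuclei.

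The most common set of the other 2N nuclei, found in 10 of 42, had chromosomes 3, 6, 8, 11, 17 and 19 at 3 copies, X at 1 and the rest at 2. Outside chromosome 3, nucleus 13 differed from it at 2 chromosomes, 1 and 8, nucleus 35 at 4, nucleus 16 at 5 and nuclei 8 and 29 at 6. These counts rest on chromosome medians, which hid a difference in chromosome 2 of nucleus 13. Over chr2:97908371-end nucleus 13 held 2.09 copies by region median, whereas 41 of 42 other 2N nuclei held 3 or more. Outside chromosome 3, none of the 5 had the set of any of the 42. The most common set of the 2N+ nuclei, found in 5 of 30, was that of nucleus 8. Nucleus 16 differed from it only at X, nucleus 35 at 1 and X, nucleus 29 at 5 chromosomes and nucleus 13 at 6. The set of nucleus 29 was found in 1 2N+ nucleus.

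Whole profiles were then compared without chromosome 3, as the mean absolute difference in copies per autosomal bin. The nearest of all nuclei was a 2N+ nucleus for nucleus 8 (0.0388 copies), nucleus 16 (0.0446) and nucleus 29 (0.0519). Nucleus 35 was nearest to nucleus 16 (0.0990), itself a member. Nucleus 13 was nearest to a 2N nucleus at a ratio of 1.5 (0.121). The nearest neighbours of nuclei 8 and 29 had the same whole copies on every chromosome, Y included. Of the 5 nearest nuclei, the number from the 2N+ gate was 4, 0, 4, 2 and 3 for nuclei 8, 13, 16, 29 and 35. For the 42 other 2N nuclei the median was 0, with 34 at 0 and 1 at 3 or more, and for the 30 2N+ nuclei the median was 4.

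By the median distance to each group, 4 of 5 minority nuclei lay nearer the 2N+ nuclei of the same ratio than the other 2N nuclei. The medians to other 2N and to 2N+ nuclei were 0.224 and 0.152 for nucleus 8, 0.217 and 0.161 for nucleus 16, and 0.350 and 0.254 for nucleus 29. Nucleus 35 lay almost as near to both, at 0.205 and 0.197, and nucleus 13 lay nearer the other 2N nuclei, at 0.192 and 0.317. With chromosome X included, 3 of 5 lay nearer the 2N+ nuclei. By the median, members were no more alike among themselves than other nuclei. The median distance was 0.232 over the 10 pairs of members, 0.196 over 861 pairs of other 2N nuclei and 0.231 over 435 pairs of 2N+ nuclei. The pairs of members were uneven: nuclei 8 and 16 lay at 0.0492, 16 and 35 at 0.0990, and 8 and 35 at 0.123. Every pair with nucleus 13 or 29 lay between 0.210 and 0.378.

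**Figure D5:**
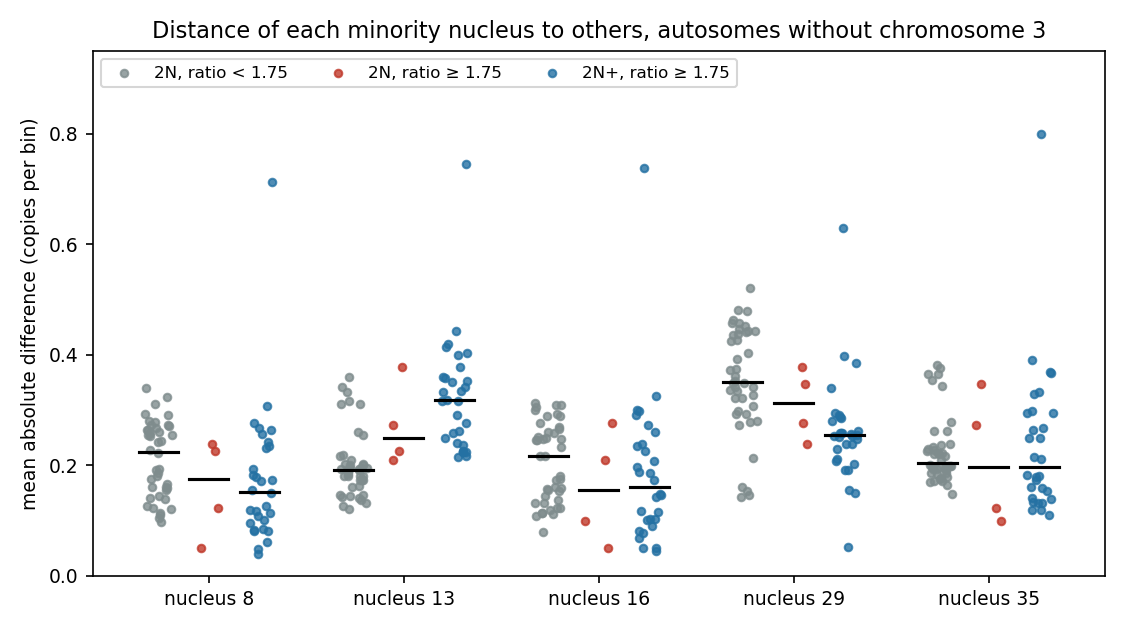
Mean absolute difference in copies per autosomal bin without chromosome 3 (vertical axis) from each minority nucleus to the other 2N nuclei (grey), the other members (red) and the 2N+ nuclei at or above the threshold (blue), 1 point per nucleus, with bars at the medians. Nucleus 13 sits nearer the other 2N nuclei (medians 0.192 and 0.317), and nucleus 8 nearer the 2N+ nuclei (0.224 and 0.152).

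Steps of at least 0.5 copies within chromosomes, outside chromosome 3, numbered 4 in nucleus 8, 11 in nucleus 13, 5 in nucleus 16, 12 in nucleus 29 and 9 in nucleus 35. Counted with chromosome 3 included, the other 2N nuclei had a median of 9.5 (4 to 25) and the 2N+ nuclei a median of 9 (3 to 59). The steps at both ends of the chromosome 2 stretch and of the chromosome 5 stretch named above were shared by all 5 members. They were also found in 25 to 42 of the 42 other 2N nuclei and 24 to 28 of the 30 2N+ nuclei. Among the members, only nucleus 35 had steps seen in no other nucleus, 2 of them, around a short stretch of chromosome 13 at 3.29 copies that begins at position 27738205. Nucleus 29 shared a step on X at position 100749006, from 1.05 to 1.99 copies, with 1 other nucleus, the 2N+ nucleus that was its nearest by profile. Nucleus 13 shared a step on chromosome 1 at position 7380793 with 1 other nucleus, a 2N+ nucleus at a distance of 0.293. It shared a step on chromosome 2 at position 105161091 with 1 other nucleus, a 4N nucleus at 0.296. Neither of these was the nearest to nucleus 13 by profile.

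Averaged over all bins of chromosomes 1 to X but those of chromosome 3, the copy number was 2.51 in nucleus 8, 2.26 in nucleus 13, 2.42 in nucleus 16, 2.63 in nucleus 29 and 2.36 in nucleus 35. The other 2N nuclei ran from 2.15 to 2.60 with a median of 2.34, and the 2N+ nuclei from 2.35 to 2.72 with a median of 2.51. Nucleus 29 thus lay above all 42 other 2N nuclei and nucleus 13 above 13 of them. Copies are scaled within each nucleus, so these means are no independent measure of the DNA content that was sorted. The fit to whole numbers left a root mean squared residual per nucleus of 0.0547 to 0.0959 copies in the minority. In all, 0 of 5 members exceeded 0.15, against 2 of 42 others.

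The library made from bulk 2N nuclei gave a chromosome 3 to chromosome 4 ratio of 1.56, beside a mean of 1.55 ± 0.143 (SD, n = 47) over the single nuclei. It lay 11.9% of the way from the mean of the other 2N nuclei to the mean of the minority, where 10.6% of the single nuclei were members. Of 8 other chromosomes set against chromosome 4 in the same way, the bulk library lay between the means of the minority and of the other 2N nuclei for 5 and below both for 3. Chromosome 15 was between them, at 1.14 beside means of 1.36 and 1.10. Below both were chromosome 1, at 1.23 beside 1.38 and 1.31, chromosome 8, at 1.34 beside 1.38 and 1.43, and chromosome 18, at 1.21 beside 1.38 and 1.26. The bulk library thus did not match the mix of single nuclei on every chromosome. There is 1 bulk library of this gate, so this comparison has no replicate check.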

How the data were processed

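Single nuclei and bulk nuclei were sequenced after whole-genome amplification, per the labels' protocols. Per the submitters' processing notes, Bowtie 1.0 and the mm9 assembly were used. The authors deposited 1 linear ratio per bin and library, already segmented, over 4906 bins of median width 486 kb. How bins were drawn, biases corrected, duplicates removed and segments found is not given in the sources used here. Deposited values hold no read depth and no bin noise, so depth and its precision are unknown.

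Each ratio was divided by the nucleus's autosomal median and multiplied by the factor from 1.5 to 6, in steps of 0.05, that brought autosomal bins nearest to whole copies. Chromosome copies are medians over the 4898 bins whose median lay from 0.25 to 4 times the autosomal median (all 3 bins for Y). The 57 regions come from a least-squares partition of the median profile of 94 nuclei. Groups counted as apart at 0.5 copies between medians, and steps were matched within 2 bins. Chromosomes 3 and 4, those apart by that rule, those at more than 1 whole copy number among members and the 10 regions with the largest differences were named. No test between groups was made, and the code was tested on simulated data. Members and lists were chosen with earlier results of these data known; chromosome Y, the combinations, the shared steps and the nearest pairs were chosen after their values were seen. Alternatives covered the threshold, denominator, scale, mean, filters and single members left out. Intervals came from scipy 1.17.1, figures from matplotlib 3.10.9, and all else from pandas 2.3.3 with numpy 2.4.6 under Python 3.11.15.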

Additional observations from a re-analysis of the deposited data

Results flagged for a closer look

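Among the 5 minority nuclei, 7 of 26 groups of values looked at had 1 nucleus far from the other 4, by the gap to its nearest neighbour as a share of the range. The criterion assumes that chance gives about 1 in 20 such groups. A chromosome at another whole number in a single nucleus meets it by itself, as in all 7 here, so that rate does not apply to these values. Nucleus 13 stood below the other 4 at chromosome 8 (2.06 copies), chromosome 15 (2.05) and chromosome 18 (2.06). Nucleus 29 stood above them at chromosome 5 (3.02) and chromosome 14 (2.90). Nucleus 35 stood below them at chromosome 1 (1.97). Nucleus 8 stood above them at chromosome X (1.93).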

How the results depend on the processing

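Of 245 values recomputed under the alternatives for 25 results, 241 kept within the limits set for them, 4 moved and 0 reversed. With the mean over bins, 1 chromosome rather than 2 was apart from the other 2N nuclei. Counting only steps of at least 0.5 copies, the median number of breakpoints in the minority was 9 rather than 17. On a scale of copies per chromosome 4, the medians of chromosomes 12 and 19 moved, from 2.01 to 1.99 and from 3.01 to 2.96. Larger shifts elsewhere counted as within the limits, so these counts do not rank stability. The minority median of chromosome 2 went from 2.96 to 2.60 with the mean over bins. That of chromosome 16 went from 2.85 to 2.54 at the lower alternative threshold. With the threshold at 3.3 or 3.7 copies of chromosome 3 per 2 of chromosome 4, the minority held 6 or 5 nuclei. Leaving out each member in turn gave 2 chromosomes apart from other 2N nuclei and 1 from 2N+ nuclei each time. The regions apart numbered 2 to 3 and 3. Chromosome 16 then passed the 0.5 rule only narrowly in some cases. Its minority median was 2.54 without nucleus 16 or 35 and 2.57 without nucleus 8, against 2.03 in the other 2N nuclei. No paired analysis was possible because a replicate number names a nucleus and pairs it with no other, and the design has no test. The members number 5, so shares have wide intervals. Segmented ratios hide bin noise and unknown depth, and amplification of 1 nucleus was not repeated.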
